A study of Mus musculus with 16 samples.

Results

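The genes described here are 35 genes of microglia, of the macrophages that line brain vessels, and of innate inflammation, measured in the hypothalamus of mice on 8 diets. They were taken as the rows of the deposited gene count table whose gene name was on a list of 35 symbols, out of 47069 rows. The list holds 23 genes of resting (homeostatic) microglia, 3 of perivascular macrophages and 9 inflammatory genes. Every symbol was in the table, and Itgam was there under 2 identifiers. Of the 35 genes, 27 had enough counts to be tested: 19 of the 23 homeostatic genes, the 3 perivascular genes and 5 of the 9 inflammatory genes.

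Microglia are the resident macrophages of the brain parenchyma, and perivascular macrophages sit between the vessel wall and the tissue. Resting microglia are kept in their state by Csf1r, the receptor for colony stimulating factor, and by transcription factors such as PU.1 and Sall1, and they carry many surface receptors that sense their surroundings. Bacterial products or tissue damage act through Toll-like receptors on NF-kappaB, which induces cytokines such as interleukin 1 and tumour necrosis factor, and also its own inhibitor, Nfkbia. In the hypothalamus, microglia and NF-kappaB signalling are best known for their response to diets rich in fat.

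All animals were C57BL/6N mice, an inbred strain, with no genetic change named in the labels. The diets gave 60% or 20% of energy as fat, and at each fat level 1%, 2.5%, 5% or 20% of energy as protein, with 2 libraries per diet. Each protein level was thus seen in 4 libraries and each fat level in 8. RNA came from hypothalamus cut out of the whole brain, so every value is a bulk level, in which fewer cells of a type and less RNA per cell cannot be told apart. Neither separate animals for the paired libraries nor age, sex or time on the diet are given in the labels. The spread behind each p-value below is therefore that between these samples and may be technical.

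Library totals ran from 17731242 to 18511818 counts. The hypothalamic peptide genes Hcrt, Oxt and Pomc were detected in all 16 libraries, with at least 204 counts each. Some libraries stood apart. At 1% protein, the mitochondrial share of counts was 1.54% and 1.61% at 60% fat and 1.78% in replicate 1 at 20% fat, against 2.19% to 3.20% in the other 13 libraries. Slc17a7, a glutamate transporter of cortical excitatory neurons, had 5074 counts in replicate 2 of the diet with 20% fat and 1% protein. It had 10337 counts in replicate 2 at 2.5% protein and the same fat level, against 1267 to 2513 in the others. These libraries also had summed choroid plexus markers of 263 and 220 CPM (counts scaled to a common library size), and they are named below wherever a member rested on them.

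How reads were assigned to genes set which members could be seen. P2ry12 and P2ry13, purinergic receptors that are among the best known markers of resting microglia, and Gpr34, another microglial receptor, were listed at 0 in all 16 libraries. The GENCODE M21 annotation of GRCm38 places P2ry12 (chr3:59216272-59262871) and P2ry13 (chr3:59207892-59210882) wholly inside the coding gene Med12l, and Gpr34 (chrX:13632089-13640858) wholly inside Cask. Of 867 coding genes that lie inside another coding gene, 810 (93.4%) had no count in any library, against 2993 of 20693 other coding genes (14.5%). Itgam, which encodes CD11b, had 0 counts under its usual identifier and 11 counts in all under the other, which overlaps it almost wholly. The values of these 4 genes are therefore no measure of their expression. The count is also uncertain for Cx3cr1, the fractalkine receptor, whose counted length of 166668 bases spans 5 other coding genes, and for Csf1r, whose span overlaps Hmgxb3.

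At 1% protein, a set of genes of resting microglia was lower than at 20% protein, while the complement genes C1qa, C1qb and C1qc, Csf1r and Tmem119 differed by less than their spread. Olfml3, Siglech, Fcrls, Ctss, Ly86 and Sall1 fell by 0.33 to 0.88 on the log2 scale. Among inflammatory genes, Nfkbia and Lcn2 rose, and the receptors Tlr2 and Tlr4 fell. With edgeR's quasi-likelihood F test, adjusted by Benjamini-Hochberg over all 16646 genes tested, 8 of 27 members passed 0.05 as lower and 2 as higher. Over all genes tested, 6.01% passed as lower and 8.26% as higher (14.3% in either direction). By class, 6 of 19 homeostatic genes were lower and none higher, none of 3 perivascular genes passed, and 2 of 5 inflammatory genes passed in each direction. The median log2 change was -0.17 for the homeostatic genes, -0.36 for the perivascular genes and 0.57 for the inflammatory genes, against 0.0035 for all genes tested. Without replicate 2 of 20% fat with 1% protein, 1 member was higher and 9 lower. In that fit 5615 genes passed in all, against 2376 in the main fit, so its member counts stand beside a far higher background. The class medians without it were -0.06 (homeostatic), -0.48 (perivascular) and 0.14 (inflammatory). The fit without the 3 libraries of low mitochondrial share keeps at 1% protein only that replicate 2, whose spread is taken to be that of the other groups. It called 3 members higher and 7 lower, and its added calls (Trem2, Laptm5 and Cx3cr1 as lower, Tlr7 as higher) rest on that library alone.

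**Figure D1:**
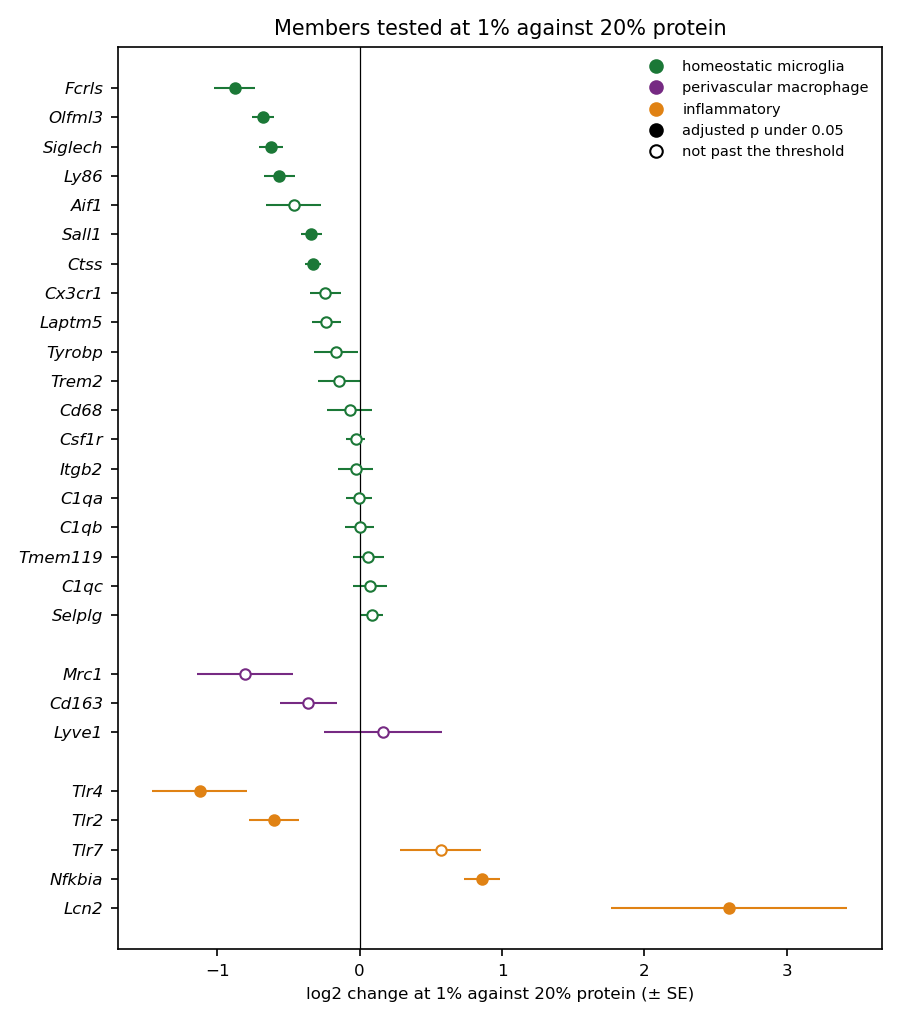
Log2 change at 1% against 20% protein for the 27 members tested, with bars of 1 standard error (edgeR quasi-likelihood fit on 16 libraries), grouped by class; filled points passed an adjusted p of 0.05. Filled points lie below 0 for 6 homeostatic genes and for Tlr2 and Tlr4, and above 0 for Nfkbia and Lcn2, whose bar is the widest of those that passed.

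The homeostatic genes that fell are described first, beginning with surface proteins. Values are CPM scaled by TMM factors, and each set of 4 is listed as replicates 1 and 2 at 60% fat and then replicates 1 and 2 at 20% fat. Siglech, a sialic acid-binding lectin largely restricted to microglia in the brain, stood at 9.28, 7.70, 8.07 and 7.97 CPM at 1% protein. At 20% protein it stood at 12.1, 12.9, 13.2 and 12.7 CPM. All 4 libraries at 1% protein lay below the other 12, whose lowest was 10.9 CPM. The share of all genes tested that separated in this way was not counted, so separations here and below describe values only. The log2 change from 20% to 1% protein was -0.62 ± 0.08 (SE, edgeR adjusted p = 0.000246), or 1.54-fold lower.

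Fcrls, a microglial Fc receptor-like scavenger receptor, was at 8.94, 7.82, 7.51 and 4.93 CPM at 1% protein. It was at 11.98, 16.5, 12.5 and 12.6 CPM at 20% protein. The 4 libraries at 1% protein again lay below all others, and the lowest of them was the library with high Slc17a7. The change was -0.88 ± 0.15 (SE, edgeR adjusted p = 0.00137), 1.84-fold lower, and -0.74 without that library (adjusted p = 0.000516, with 4.92e-07 to 0.00631 over the 24 alternative analyses). Ly86, also called MD-1, which pairs with the Toll-like receptor homologue RP105, was at 5.01, 5.29, 4.97 and 5.69 CPM at 1% protein. At 20% protein it was at 8.597, 6.85, 7.29 and 8.26 CPM. No library at 1% protein reached the lowest of the other 12 (6.58 CPM), and the change was -0.56 ± 0.11 (SE, edgeR adjusted p = 0.00373). Ly86 did not pass without the 3 libraries of low mitochondrial share, with a change of -0.47 and an adjusted p of 0.244, the highest over the alternatives, which began at 0.000791.

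Other homeostatic genes that fell encode a secreted protein, a protease and a transcription factor. Olfml3, a secreted olfactomedin-domain glycoprotein enriched in microglia, was at 14.0, 12.3, 14.6 and 13.3 CPM at 1% protein. It was at 21.4, 21.4, 22.7 and 21.3 CPM at 20% protein. The groups were far apart relative to their spread, and the change of -0.68 ± 0.08 had the smallest adjusted p of the members (SE, edgeR adjusted p = 7.75e-05). Ctss, the lysosomal protease cathepsin S, was at 47.9, 44.9, 44.6 and 45.5 CPM at 1% protein against 59.5, 57.1, 59.1 and 54.1 CPM at 20% protein. Its fall was smaller, -0.33 ± 0.06 (SE, edgeR adjusted p = 0.00179), and again the 4 libraries lay below the other 12, whose lowest was 50.9 CPM. As for Ly86, the fit without the 3 libraries of low mitochondrial share did not pass it (-0.32, adjusted p = 0.1002, with 1.8e-05 to 0.1002 over the alternatives). Sall1, the zinc finger transcription factor of microglial identity, was at 33.2, 27.6, 25.6 and 24.1 CPM at 1% protein and at 35.8, 34.3, 33.9 and 35.5 CPM at 20% protein. It was below all libraries at 20% protein but not below all at 5% or 2.5%, with a change of -0.34 ± 0.07 (SE, edgeR adjusted p = 0.00755). Siglech, Fcrls, Olfml3, Sall1, Ly86, Ctss and Nfkbia passed in each of the 23 alternative analyses of this comparison that kept more than 1 library at 1% protein.

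**Figure D2:**
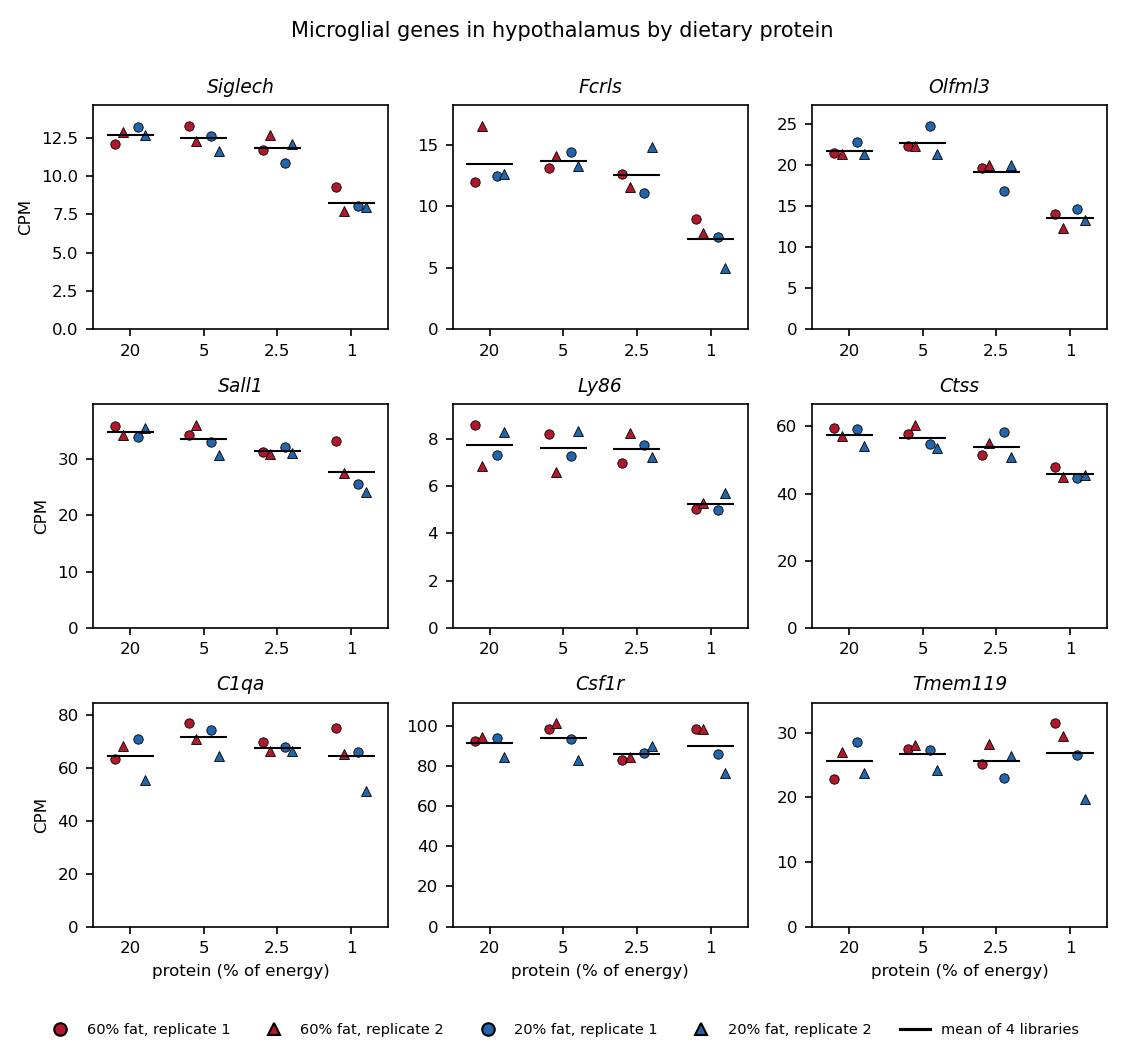
CPM of 9 microglial genes (1 panel each) against dietary protein (percent of energy) in 16 libraries; colour gives the fat level, marker shape the replicate number and the line the mean of 4 libraries. Siglech, Fcrls, Olfml3, Ly86 and Ctss have all 4 libraries at 1% protein below the other 12, and the C1qa, Csf1r and Tmem119 panels show overlapping levels.

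Sequence upstream of the start sites was examined because these genes moved together. RefSeq windows (GRCm38.p6) of 250 bases before and 50 after the start were available for 25 of the 35 members, in 27 windows. Only the 250 bases before the start were searched, on both strands, in 32851 windows in all. GAGGAA, the core bound by PU.1, was in 23.3% of all windows and in 15 of the 27 member windows, and the longer GAGGAAGT was in 2.4% of all windows and in that of C1qc among the members. Of the 6 homeostatic genes that fell, Siglech, Olfml3, Ly86 and Sall1 had no GAGGAA in their windows. Fcrls and Ctss held it, and their windows are shown as examples with GAGGAA in capitals. C1qb and C1qc, whose levels differed by less than their spread, held it too. The 250 bases before the start are printed 5′ to 3′ on the gene's strand, Fcrls from chr3:87263525-87263774 (minus strand) and Ctss from chr3:95526536-95526785 (plus strand).
Fcrls: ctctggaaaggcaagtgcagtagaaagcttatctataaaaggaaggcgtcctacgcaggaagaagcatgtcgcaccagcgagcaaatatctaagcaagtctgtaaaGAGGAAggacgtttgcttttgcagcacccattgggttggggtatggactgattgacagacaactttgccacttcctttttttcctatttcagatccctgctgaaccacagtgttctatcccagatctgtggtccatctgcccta
Ctss: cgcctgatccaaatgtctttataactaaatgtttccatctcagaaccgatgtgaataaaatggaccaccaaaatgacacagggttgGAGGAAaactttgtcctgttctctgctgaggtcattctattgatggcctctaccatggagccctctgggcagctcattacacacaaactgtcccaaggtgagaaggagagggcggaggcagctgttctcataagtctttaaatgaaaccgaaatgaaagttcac

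The core complement and receptor genes of microglia did not follow. C1qa, a subunit of C1q that starts the classical complement cascade, was at 75.2, 65.3, 66.2 and 51.2 CPM at 1% protein. It was at 63.2, 68.2, 71.1 and 55.6 CPM at 20% protein. The groups overlapped fully, and the change was -0.0047 ± 0.09 (SE, edgeR adjusted p = 0.98). Tmem119, a membrane protein used to tell microglia from other macrophages, was at 31.4, 29.5, 26.6 and 19.7 CPM at 1% protein against 22.8, 27.0, 28.6 and 23.8 CPM at 20% protein, with a change of 0.06 ± 0.11 (SE, edgeR adjusted p = 0.734). The lowest of these libraries was replicate 2 of 20% fat with 1% protein. That library was also the lowest of all 16 for most homeostatic genes that did not pass. These were Cx3cr1, C1qa, C1qb, C1qc, Csf1r, Trem2, Tyrobp, Cd68, Aif1 and Laptm5, besides Tmem119. Without it, the changes were 0.077 for C1qa, 0.022 for Csf1r and 0.17 for Tmem119, and these did not pass. Cx3cr1 was at 43.9, 42.5, 45.9 and 28.4 CPM at 1% protein and at 47.1, 47.4, 48.9 and 46.1 CPM at 20% protein. It lay below all libraries at 20% protein, but its change of -0.24 ± 0.11 did not pass (SE, edgeR adjusted p = 0.136). The 13 homeostatic genes that did not pass ran from -0.46 (Aif1, an actin-binding protein of microglia also called Iba1) to 0.08 (Selplg, the ligand of P-selectin). A p above the threshold does not show that these levels were equal.

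Ratios within a library set the falling genes beside genes of the same cells. These genes were picked after their values were seen, so the ratios are a description. Per 100 counts of C1qa, Siglech had 11.8 to 15.6 counts in the 4 libraries at 1% protein and 15.99 to 22.8 in the other 12. Fcrls had 9.64 to 11.97 counts at 1% protein and 16.2 to 24.2 elsewhere. Olfml3 had 18.6 to 26.1 counts at 1% protein and 24.7 to 38.3 elsewhere, a slight overlap. Csf1r had 130 to 151 counts at 1% protein and 119 to 152 elsewhere, and Tmem119 38.5 to 45.2 against 33.7 to 42.8, so neither separated the libraries. Levels of Siglech and Fcrls were thus lower at 1% protein also relative to C1qa in the same libraries.

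Perivascular macrophage genes were low in counts and varied widely. Mrc1, the mannose receptor, had 30, 10, 15 and 40 counts at 1% protein and 52, 41, 47 and 31 at 20% protein. The groups overlapped through replicate 2 at 20% fat in both, and the change of -0.80 ± 0.34 did not pass (SE, edgeR adjusted p = 0.116). Without replicate 2 of 20% fat with 1% protein, it passed with -1.20 (adjusted p = 0.0124), and the adjusted p ran from 0.0061 to 0.981 over the alternatives. Cd163, the scavenger receptor for haemoglobin, had 28 to 52 counts at 1% protein and 47 to 66 at 20% protein, with a change of -0.36 ± 0.20 (SE, edgeR adjusted p = 0.229). Lyve1, a hyaluronan receptor, had 5, 9, 14 and 30 counts at 1% protein and 12 to 14 at 20% protein, with a change of 0.16 ± 0.41 (SE, edgeR adjusted p = 0.819). Its highest value was again in replicate 2 of 20% fat with 1% protein, without which the change was -0.48. Without the 2 libraries of high Slc17a7, Mrc1 (-1.22, adjusted p = 0.0061) and Cd163 (-0.49, adjusted p = 0.0489, with 0.0489 to 0.863 over the alternatives) both passed as lower. In that fit 5889 genes passed in all. The calls of this class thus turned on those libraries.

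Of the 3 Toll-like receptors among the inflammatory genes, Tlr2 and Tlr4 passed as lower and Tlr7 did not pass. Tlr2, the receptor for bacterial lipopeptides, was at 2.70, 2.42, 1.99 and 1.95 CPM at 1% protein. It was at 3.71, 3.26, 3.62 and 3.15 CPM at 20% protein. The groups did not overlap, and Tlr2 fell by 0.60 on the log2 scale with an SE of 0.18 (edgeR adjusted p = 0.0341). Tlr4, the receptor for lipopolysaccharide, had 6, 10, 8 and 33 counts at 1% protein against 37, 23, 32 and 34 at 20% protein. Its 3 low libraries and 1 library at the level seen at 20% protein thus made up its change of -1.12 ± 0.33 (SE, edgeR adjusted p = 0.0348). Without replicate 2 of 20% fat with 1% protein the change was -1.88 (adjusted p = 0.000161), and without the 3 libraries of low mitochondrial share it was -0.03 (adjusted p = 0.978), these being the ends of the range over the alternatives. Tlr2 failed the threshold in 6 and Tlr4 in 7 of the 24 alternatives. Tlr7, a sensor of single-stranded RNA, had 38, 42, 29 and 80 counts at 1% protein and 33, 29, 32 and 37 at 20% protein, a change of 0.57 ± 0.29 that did not pass (SE, edgeR adjusted p = 0.185). The value of 80 belonged to the same library of 20% fat with 1% protein, without which the change was 0.14 (edgeR adjusted p = 0.678).

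The cytokine genes were close to undetected in every diet. Interleukin 1 alpha (Il1a) had 11 counts over all 16 libraries and at most 2 in any of them. Il1b had 22 counts in all and at most 5, and Tnf 13 in all and at most 2. Ccl3, a chemokine of activated microglia, had 76 counts in all and at most 8, with 4 to 5 counts per library at 1% protein and 2 to 7 at 20% protein. None of these 4 genes passed the filter on low counts, so they were not tested. A library with 0 counts allows up to 3 counts, or 0.16 to 0.169 CPM, for counting error only, so differences below that level were not detectable at this depth. Il1a and Il1b each overlap another gene, and whether shared reads are missing from their counts was not tested.

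Nfkbia, the inhibitor that holds NF-kappaB in the cytoplasm and is itself induced by NF-kappaB and by glucocorticoids, was the member that rose most evenly. It was at 46.0, 58.3, 50.1 and 50.7 CPM at 1% protein. It was at 28.2, 24.2, 28.1 and 32.7 CPM at 20% protein. All 4 libraries at 1% protein lay above the other 12, whose highest was 41.3 CPM. The change was 0.86 ± 0.13 (SE, edgeR adjusted p = 0.000628), 1.81-fold higher. Lcn2, lipocalin 2, an iron-binding acute phase protein made by reactive astrocytes, choroid plexus and neutrophils, had 11, 2, 9 and 105 counts at 1% protein and 7, 4, 5 and 3 at 20% protein. The library with 105 counts, replicate 2 of 20% fat with 1% protein, carried its change of 2.60 ± 0.83 (SE, edgeR adjusted p = 0.0467). Without that library the change was 0.64 (adjusted p = 0.359, with 2.55e-05 to 0.363 over the alternatives), and Lcn2 failed the threshold in 16 of the 22 alternatives that tested it. That library also had the highest summed choroid plexus markers (263 CPM, with 3879 counts of Ttr), and their part in the Lcn2 value was not tested.

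**Figure D3:**
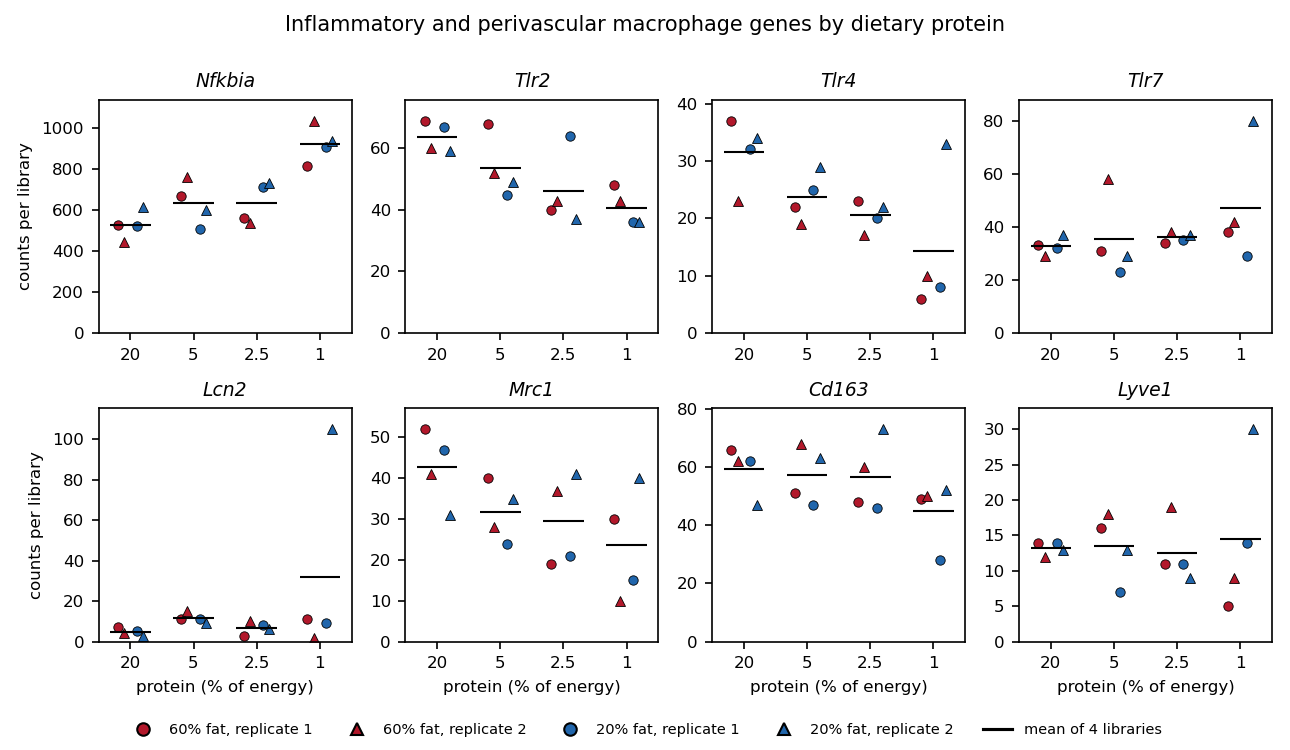
Counts per library of 8 inflammatory and perivascular genes (1 panel each) against dietary protein (percent of energy); colour gives the fat level, marker shape the replicate number and the line the mean of 4 libraries. Lcn2 has a single library at 105 counts with all others between 2 and 15, and the same library (20% fat, replicate 2, 1% protein) is the highest for Tlr7, at 80 counts, and Lyve1, at 30.

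The consensus site of NF-kappaB was searched in the same windows because Nfkbia and Tlr2 are textbook targets of this factor. It was in 7.3% of all windows and in those of 4 members, Nfkbia, Tlr2, P2ry12 and C1qc. A match is a description of letters and not evidence of binding. The match in Nfkbia began 29 bases before the start, and overlapping matches in Tlr2 began 172 and 173 bases before it. Below, the matches are in capitals in the 250 bases before the start, from chr12:55492648-55492897 for Nfkbia and chr3:83841609-83841858 for Tlr2, both on the minus strand. At 1% protein Nfkbia was higher and Tlr2 lower, C1qc did not pass, and P2ry12 was not measured. The part of NF-kappaB in these values was not tested.
Nfkbia: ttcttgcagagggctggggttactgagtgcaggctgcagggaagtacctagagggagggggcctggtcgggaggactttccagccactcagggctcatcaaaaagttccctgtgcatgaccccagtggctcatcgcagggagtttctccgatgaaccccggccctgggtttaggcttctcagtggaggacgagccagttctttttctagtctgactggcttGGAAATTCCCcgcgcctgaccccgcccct
Tlr2: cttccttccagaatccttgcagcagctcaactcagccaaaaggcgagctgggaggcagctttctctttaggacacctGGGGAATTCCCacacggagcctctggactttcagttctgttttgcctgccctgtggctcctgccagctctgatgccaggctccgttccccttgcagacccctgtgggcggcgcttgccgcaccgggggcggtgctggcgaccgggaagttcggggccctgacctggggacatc

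The palindromic consensus of the glucocorticoid receptor element was found in 3 of the 32851 windows and in no member window. AGAACA, an arm of that element, was in 16.1% of all windows and in those of 8 members, among them Ctss, Fcrls and Ly86. The SMAD box CAGACA was in 17.1% of all windows and in those of 6 members, among them Siglech, Fcrls and Ly86. None of the motifs searched was found in all of the homeostatic genes that fell and had a window.

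For the leading genes, the libraries at 1% protein stood apart from every other level. Mean Siglech was 12.7 ± 0.461, 12.5 ± 0.682, 11.8 ± 0.774 and 8.26 ± 0.700 CPM (SD, n = 4) at 20%, 5%, 2.5% and 1% protein. Mean Nfkbia was 28.3 ± 3.48, 34.6 ± 5.86, 34.4 ± 5.43 and 51.3 ± 5.12 CPM (SD, n = 4) in the same order. The levels at 20%, 5% and 2.5% protein overlapped for both genes, and those at 1% stood apart. For 2.5% against 20% protein, 0 of 27 members passed edgeR's test or DESeq2, with 3 at an unadjusted p under 0.05, where 0.00601% of all genes passed in edgeR. For 5% against 20% protein 0 passed by either tool, with 2 at an unadjusted p under 0.05, against 0.03% of all genes (0.018% as higher and 0.012% as lower). In a comparison of 1% with 2.5% protein that was added after these results were seen, Siglech (-0.52 ± 0.08), Olfml3 (-0.49 ± 0.08), Fcrls (-0.78 ± 0.15), Ly86 (-0.53 ± 0.11) and Ctss (-0.24 ± 0.06) were lower and Nfkbia (0.58 ± 0.13) higher (SE, edgeR adjusted p from 0.00372 to 0.0367). In that comparison 2.32% of all genes passed, 0.931% as lower and 1.39% as higher. It shares its libraries at 1% protein with the comparison against 20%, so it is not independent of it. It called 3 members as lower and none as higher without replicate 2 of 60% fat at 1% or at 2.5% protein, or without replicate 1 of 20% fat at 1% protein. Sall1 stepped down by less at each level, with 34.9 ± 0.884, 33.5 ± 2.30, 31.4 ± 0.517 and 27.6 ± 3.98 CPM (SD, n = 4), and did not pass against 2.5% protein (-0.19, adjusted p = 0.153).

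A straight line along the percentage of protein, the form of model in the study's design text, called 0 of 27 members in edgeR, with 9 at an unadjusted p under 0.05, and 0.018% of all genes, 0.012% of them as higher. DESeq2 called Nfkbia. With protein on a log2 scale, which spaces the low levels further apart, 1 member was higher and 8 were lower (Nfkbia, and Siglech, Fcrls, Ly86, Olfml3, Ctss, Sall1, Tlr2 and Tlr4), and 1311 genes passed in all. The number of members called along protein therefore turned on the scale of the protein axis.

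Dietary fat made no difference that passed. For 60% against 20% fat, 0 of 27 members passed edgeR's test or DESeq2, with 3 at an unadjusted p under 0.05, against 0.00601% of all genes in edgeR. The member nearest to the threshold was Selplg, with a change of 0.15 ± 0.06 (SE, edgeR adjusted p = 0.629), at 38.3 ± 3.44 CPM at 60% fat and 34.3 ± 2.55 CPM at 20% fat (SD, n = 8). Il1b and Tnf, the cytokines most often tied to dietary fat, stayed near 0 counts at both fat levels. The difference between fat levels in the change from 20% to 1% protein passed for 0 members, and 0% of all genes, in edgeR and DESeq2, with 4 members at an unadjusted p under 0.05.

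Within each fat level, with 2 libraries against 2, the same direction was seen for the leading genes. These tests were added after the first results were seen. At 60% fat, Siglech (-0.56), Fcrls (-0.77), Olfml3 (-0.70) and Ctss (-0.33) were lower and Nfkbia (0.99) higher, where 4.22% of all genes passed, 2.25% as lower and 1.96% as higher. At 20% fat, Siglech (-0.69), Fcrls (-1.01), Olfml3 (-0.66) and Sall1 (-0.48) were lower and Nfkbia (0.73) higher, where 1.78% of all genes passed, 1.18% as lower and 0.601% as higher (edgeR adjusted p from 0.00218 to 0.0478 over both fat levels). Ctss at 20% fat had the same change of -0.33 with an adjusted p of 0.0656. These counts rest on few libraries. At 60% fat, no member was lower without replicate 2 at 1% protein or without either replicate at 20% protein, and 1 was lower without replicate 1 at 1% protein. At 20% fat, no member was lower without either replicate at 20% protein.

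Libraries of the same diet differed most at 20% fat with 1% protein. The median absolute difference between its 2 libraries was 0.48 on the log2 scale over the members tested, against 0.11 to 0.22 in the other 7 diets. Taking each class in a library as the median of its genes' log2 CPM minus their means over the 16 libraries, the homeostatic class at 1% protein stood at 0.13 and -0.20 at 60% fat and at -0.07 and -0.45 at 20% fat. It ran from -0.09 to 0.12 at 20% protein, so the class median overlapped between protein levels. Siglech, Fcrls, Olfml3, Ly86, Ctss, Sall1 and Cx3cr1 did not overlap between 1% and 20% protein. The share of all genes tested without such overlap was not counted, so this describes values only. The inflammatory class was highest in replicate 2 of 20% fat with 1% protein, at 0.63, the library with the lowest homeostatic value.

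**Figure D4:**
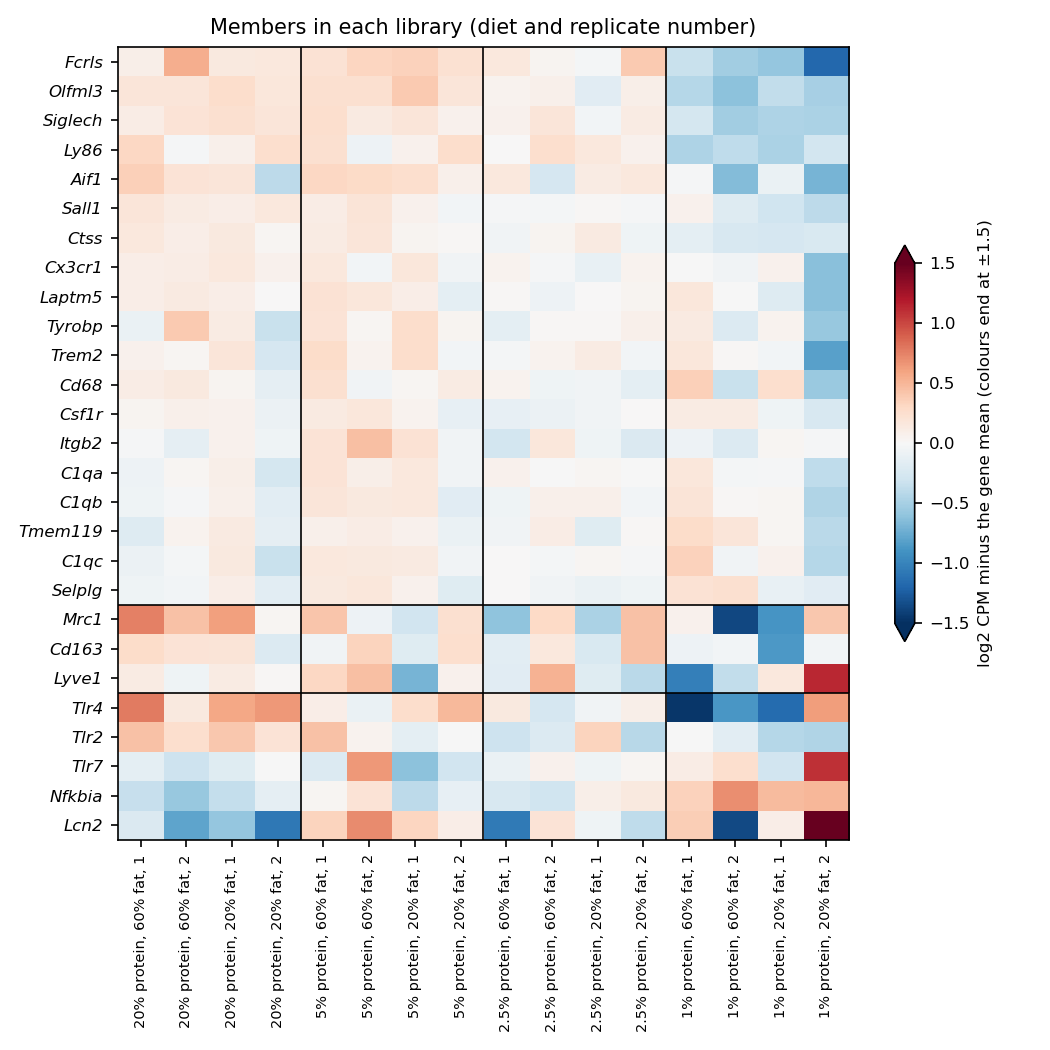
Log2 CPM minus each gene's mean over 16 libraries for the 27 members tested (rows, by class) in 16 libraries (columns, by protein level, fat level and replicate); colours end at -1.5 and 1.5. Siglech, Fcrls, Olfml3, Ly86 and Ctss are low in each of the 4 columns at 1% protein. Replicate 2 of 20% fat with 1% protein is the lowest column for Cx3cr1, Tmem119, Csf1r, C1qa, C1qb, C1qc, Trem2, Tyrobp, Cd68, Aif1 and Laptm5.

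Further genes of the same cells and pathways were counted from lists drawn up by function, to be read against the 6.01% of all genes tested that passed as lower and the 8.26% that passed as higher. The lists were chosen with earlier results of these data known, so their counts are a description and not independent support. Of 27 further microglial genes tested, 6 were lower at 1% than at 20% protein and none higher, among them Bin2 (-0.58), Cd33 (-0.63), Ptprc, the leukocyte antigen CD45 (-0.84), and Dock8 (-0.48). Of 17 genes raised in disease-associated microglia, 2 were lower, Spp1, or osteopontin (-1.06), and Cd9 (-0.27), and none higher. The median change over these 17 genes was 0.019, with 8 of them below 0. Of 6 further border macrophage genes, Cd36 (-0.55) and Maf (-0.43) were lower. Of 30 genes of Toll-like receptor and NF-kappaB signalling, Nfkbib, another NF-kappaB inhibitor, was higher (0.25) and Chuk, the kinase IKK-alpha, lower (-0.29). Of 19 genes listed for cytokines, chemokines, their receptors and related inflammatory functions, 7 were lower and none higher. Among the lower were the adhesion molecule Vcam1 (-0.57), the chemokine Cxcl16 (-0.75) and the nitric oxide synthase Nos2 (-1.31). Complement genes outside C1q gave 2 of 11 lower, among them Serping1 (-0.54), and ligands of microglial receptors 1 of 10, Pros1 (-0.33). Of 12 glucocorticoid target genes, 9 were higher and none lower. Ddit4 (1.104), Fkbp5 (1.31) and Cdkn1a (2.01) had smaller p than Nfkbia, which is on this list as well as among the members. The median of this list was 0.57 and that of the further microglial genes -0.21, against 0.0035 for all genes tested.

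Markers of other cell types moved with dietary protein beside these members, where again 6.01% of all genes passed as lower and 8.26% as higher. Their lists were also chosen with earlier results of these data known. Of 8 endothelial markers, 7 were lower at 1% than at 20% protein, and their summed level was 163 to 176 CPM against 211 to 248 CPM. Of 10 markers of mural cells and meningeal fibroblasts, 7 were lower and 1 higher, with sums of 150 to 219 CPM against 251 to 296 CPM. Blood monocyte and neutrophil markers summed to 1.57 to 6.30 CPM at 1% protein and 2.51 to 3.98 CPM at 20%. In that list 1 of 7 tested was lower, Ccr2, the receptor that marks blood monocytes, with 4, 0, 1 and 2 counts at 1% protein against 12, 7, 6 and 12 at 20%. Neither lymphocyte markers (2 tested) nor red cell markers (4 tested) passed. Of 10 tested markers of reactive astrocytes 1 was higher (Lcn2) and 3 were lower (Aspg, Vim and Hspb1), with sums of 134 to 156 CPM against 168 to 182 CPM. Of 8 general astrocyte markers, 3 were higher (Aldoc, Aldh1l1 and Slc1a3) and 1 was lower (Aqp4). Their sums were 3842 to 4248 CPM at 1% protein against 3636 to 3754 CPM at 20%. Gfap and Timp1 were listed at 0 throughout, beside these sums. Whether those 0 values come from how reads were assigned was not tested, so they are not read as absence of expression. Thalamic markers passed as higher for 4 of 7, with sums of 757 to 1162 CPM at 1% protein and 624 to 711 CPM at 20%. The part of these shifts, and of the low mitochondrial share, in the changes of the members was not tested.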

How the data were processed

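Libraries were made by standard methods of the Beijing Genomics Institute from hypothalamic RNA, per the labels' protocols. The authors deposited a table of raw gene counts for 47069 genes in 16 libraries, with a length column. Per the submitters' processing notes, reads were handled with HISAT2 2.1.0, SAMtools 1.2, FastQC, Subread 5.0, featureCounts and edgeR, and the build was GRCm38. Whether counting used strand is unknown from the labels and notes, so antisense reads may be included. The deposited length equalled the whole span in GENCODE M21, introns included, for 29 of the 36 member rows, and 11 of these rows overlap another gene. Such counts may hold intronic reads and miss shared reads.

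The filter was filterByExpr of edgeR with a minimum count of 10 (16646 genes left), and scaling was by TMM. Its quasi-likelihood F test (edgeR version 4.0.16 in R version 4.3.3) was fitted to all 16 libraries on protein as 4 levels and fat, on protein as a straight line with fat (with their interaction where its p was at most 0.05), and on 8 separate diets for the fat levels and their difference. P-values were adjusted by Benjamini-Hochberg over all genes at 0.05. The SE is the log2 change divided by the square root of F. Log2 CPM used a prior count of 2. All members are accounted for, with full statistics for those past the threshold and for 16 others named by rule, and up to 4 genes with the smallest p are named from each further list. Some genes of those lists are counted but not reported here by name. Members, lists and naming rule were chosen with earlier results of these data known. Libraries of the same diet differed beyond counting noise (chi-square per degree of freedom 3.02 to 25.3). Alternatives were median-ratio scaling, DESeq2 1.42.0, 2 other filters on counts, a block for the replicate number, protein on a log2 scale, a gene length offset, fewer libraries and leaving out each library. The steps were tested on simulated counts.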

Additional observations from a re-analysis of the deposited data

Results flagged for a closer look

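In each protein or fat group, each tested member's highest and lowest library was set against the rest by Dixon's criterion on log2 CPM. Chance gives about 1 in 20 for a single group of like libraries. The groups here share libraries, and the fat groups pool 4 protein levels, so that share is no reference for their number. This made 162 groups, of which 15 held a library far from the others. Replicate 2 of 20% fat with 1% protein accounted for 6 of them. It was low for Cx3cr1, at 28.4 CPM against 42.5 to 45.9 CPM in the other libraries at 1% protein, and against 40.8 to 49.5 CPM in the others at 20% fat. It was low for Laptm5, a lysosomal membrane protein, at 26.1 CPM against 35.4 to 43.2 CPM in the others at 20% fat. In the same 8 libraries it was high for Lyve1 (1.63 CPM against 0.380 to 0.774 CPM), Tlr7 (4.34 CPM against 1.25 to 2.01 CPM) and Lcn2 (5.69 CPM against 0.160 to 0.597 CPM). Replicate 1 of 20% fat with 1% protein was low for Tlr4, at 0.442 CPM against 1.08 to 1.81 CPM at 20% fat, and for Cd163, at 1.55 CPM against 2.76 to 2.82 CPM at 1% protein.

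The remaining groups involved other diets. Replicate 2 of 20% fat with 5% protein was low for C1qb (50.4 CPM against 63.1 to 64.3 CPM) and C1qc (45.8 CPM against 51.9 to 52.8 CPM) among the libraries at 5% protein. At 2.5% protein, Aif1 was low in replicate 2 of 60% fat (2.17 CPM against 2.85 to 2.94 CPM) and Olfml3 in replicate 1 of 20% fat (16.8 CPM against 19.6 to 20.0 CPM). At 20% protein, Fcrls was high in replicate 2 of 60% fat (16.5 CPM against 11.98 to 12.6 CPM), Olfml3 was high in replicate 1 of 20% fat (22.7 CPM against 21.3 to 21.4 CPM), and Cd163 was low in replicate 2 of 20% fat (2.51 CPM against 3.35 to 3.55 CPM).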

How the results depend on the processing

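Counts of members past the threshold moved as follows, and the cause was not tested. For 1% against 20% protein, 1 in place of 2 was higher under DESeq2 (which gave Lcn2 no adjusted p), with at least 1 CPM in at least 4 libraries, without the 2 libraries with cortex markers (10 lower in place of 8, and 5889 genes in all against 2376) and with a gene length offset. Leaving out each library gave 1 to 2 higher and 6 to 9 lower, and 939 to 5615 genes in all, the highest without replicate 2 of 20% fat with 1% protein. The fit without the 3 libraries of low mitochondrial share, chosen after seeing the data and with 1 library left at 1% protein, called 403 genes. Along protein, DESeq2 called 1 higher (92 genes in all), and the log2 scale of protein 1 higher and 8 lower (1311 genes in all against 3). At 60% fat, no count filter gave 7 lower, and leaving out each library gave 0 to 1 higher and 0 to 6 lower. At 20% fat, no count filter and the fit without the 3 libraries each gave 2 higher, and leaving out each library gave 0 to 2 higher and 0 to 6 lower. For 1% against 2.5% protein the length offset gave 0 higher, and leaving out each library gave 0 to 1 higher and 3 to 6 lower. Tlr2 failed without the 3 libraries, without replicate 2 at 60% fat or replicate 1 at 20% fat at 1% protein, and without any library at 20% protein other than replicate 2 at 60% fat. Tlr4 failed without the 3 libraries, without any library at 1% protein other than replicate 2 at 20% fat, and without any at 20% protein other than replicate 1 at 20% fat.

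Members that did not pass changed sign around 0 in 1% against 20% protein. Without the 3 libraries the log2 changes were -0.36 for Tmem119, -0.40 for C1qb, -0.35 for C1qc, -0.11 for Selplg and 0.058 for Itgb2. Without the libraries with cortex markers they were 0.019 for Csf1r, 0.026 for Trem2, 0.077 for C1qa, 0.064 for Cd68 and -0.48 for Lyve1. C1qb was at -0.0054 with median-ratio scaling, -0.0056 with DESeq2, -0.0054 with no filter and -0.0035 with the CPM filter. With the length offset, C1qb was at -0.064 and C1qc at -0.019. Leaving out each library gave -0.025 to 0.17 for Tmem119, -0.068 to 0.022 for Csf1r, -0.25 to 0.024 for Trem2, -0.082 to 0.077 for C1qa, -0.079 to 0.10 for C1qb, -0.060 to 0.18 for C1qc, -0.22 to 0.062 for Cd68, -0.083 to 0.018 for Itgb2 and -0.48 to 0.46 for Lyve1.

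With the replicate number as a block, 2 members were higher and 8 lower at 1% against 20% protein (2786 genes in all), and C1qb was at -0.0051. Deviations of same-numbered libraries correlated from -0.17 to 0.339 over 28 pairs of diets (median 0.02, 7 over 0.1), so the numbers are not taken to pair the libraries. Counts under about 10 a library limit Ccl3, Il1a, Il1b and Tnf.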
